A study of Mus musculus with 16 samples.

Results

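Rpl22 and Rpl22l1, the genes of ribosomal protein L22 and of its paralog L22-like 1, were followed through mouse T cell acute lymphoblastic leukaemia (T-ALL). They are 2 of the 41214 gene rows in the count tables, and both were among the 17470 genes that passed the low-count filter. The pair was chosen because Rpl22 lay lower and Rpl22l1 higher in leukaemias with mutant Miz1, so values of that comparison are given as a description, with no p-value for either gene. Gene expression was measured by RNA sequencing of total RNA in 16 mice of the C57Bl6 strain, in 8 groups of 2 mice, with 1 library per mouse. Miz1, the zinc finger transcription factor made from Zbtb17, was either a form without its POZ domain (deltaPOZ, 10 mice) or wild type (wt, 6 mice).

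All animals had T-ALL. The deltaPOZ animals are divided by a suffix, Lck or Vav, that the labels do not explain. Among leukaemias induced by ICN (12 mice) and lacking p53 (p53 ko), the groups were deltaPOZ Lck, deltaPOZ Vav and Miz1 wt. The same 3 groups were present among ICN leukaemias with wild-type p53 (p53 wt). Among p53-ko leukaemias that arose without ICN (4 mice), the groups were deltaPOZ Vav and Miz1 wt. ICN is an activated form of Notch. What drove the Miz1 deletion, how old the mice were and which organ was sampled is not stated in the labels. The libraries held 36463524 to 68523196 gene counts, and all 13 T cell markers examined were detected in all of them, with a summed level of 2890.5 to 6516.5 CPM. CPM is a count scaled to a fixed library size, here with TMM factors.

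L22 is an RNA-binding protein of the large ribosomal subunit that general protein synthesis does not require. In mice its loss blocks the development of alpha-beta T cells through p53, and the gene is deleted or mutated in a share of human T-ALL. L22-like 1 is closely related to it and can take its place in the ribosome. In mouse cells L22 binds the Rpl22l1 transcript and lowers its level. Miz1 has been reported to bind the Rpl22 promoter in lymphoid precursors.

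Rpl22 (ENSMUSG00000028936) lies on the plus strand of chromosome 4 from 152325742 to 152334071 on GRCm38, and its merged exons span 2911 bases. Rpl22l1 (ENSMUSG00000039221) lies on the plus strand of chromosome 3 from 28805436 to 28807424, with 1989 bases of merged exons. Neither overlaps another annotated gene. The start regions are shown because the members moved in opposite directions with the state of a transcription factor. RefSeq lists 1 start window for Rpl22l1 and 2 for Rpl22 (GRCm38.p6, plus strand, 250 bases before to 50 after the start), and motif matches are in capitals.
Rpl22l1, chr3:28805258-28805557: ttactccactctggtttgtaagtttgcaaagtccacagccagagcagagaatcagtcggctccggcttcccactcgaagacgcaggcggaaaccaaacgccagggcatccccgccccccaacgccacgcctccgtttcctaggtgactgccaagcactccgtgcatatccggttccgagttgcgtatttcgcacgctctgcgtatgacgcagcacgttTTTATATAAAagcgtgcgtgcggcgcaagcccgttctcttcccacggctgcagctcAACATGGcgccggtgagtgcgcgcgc
Rpl22, chr4:152325476-152325775: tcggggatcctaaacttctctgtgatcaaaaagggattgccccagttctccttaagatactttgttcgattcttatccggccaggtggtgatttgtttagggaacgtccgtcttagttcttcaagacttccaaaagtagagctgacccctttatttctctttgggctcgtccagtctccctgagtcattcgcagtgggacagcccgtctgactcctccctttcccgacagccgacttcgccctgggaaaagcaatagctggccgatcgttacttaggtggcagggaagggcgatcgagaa
Rpl22, upstream start, chr4:152324186-152324485: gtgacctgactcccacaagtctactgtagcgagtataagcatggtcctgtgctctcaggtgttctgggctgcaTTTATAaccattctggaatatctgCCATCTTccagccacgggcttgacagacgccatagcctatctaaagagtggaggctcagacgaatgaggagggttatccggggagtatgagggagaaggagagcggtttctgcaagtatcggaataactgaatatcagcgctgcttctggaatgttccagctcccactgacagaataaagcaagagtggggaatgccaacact
Six-letter words reported for Miz1 (ATCGAT and ATCGGT), the E-box CACGTG, the ETS core CCGGAA, the YY1 core CCATNTT and the TATA box TATAAA were searched on both strands.

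The Rpl22l1 window held TATAAA on the plus strand from base -28, a minus-strand match from base -32 that overlaps it, and a minus-strand CCATNTT match from base 25 after the start. The Rpl22 window nearest the annotated gene start held none of the 6 motifs, and the upstream Rpl22 window held CCATNTT from base -153 and a minus-strand TATAAA match from base -177. TATAAA occurred in 13.6% and CCATNTT in 16.1% of 32851 windows of the same length, CCGGAA in 14.9%, CACGTG in 7.15%, ATCGGT in 2.33% and ATCGAT in 0.925%. The Rpl22l1 window had 59.3% G and C and 30 CpG dinucleotides. The windows of Rpl22 had 51% and 50% G and C with 15 and 8 CpG, against medians of 52.7% and 7 CpG over all windows.

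Rpl22 was the steadier of the pair. Its TMM-scaled level reached 264 CPM (14152 to 34525 counts per library) at the lowest and 836 CPM at the highest, a 3.17-fold range. Rpl22l1 covered a 28.9-fold range, with 8.46 to 244 CPM from 338 to 14308 counts. In all 16 libraries both genes were counted far above the low-count filter, so counting error is small beside the spread between mice. Over mice of a group, the pooled SD was 0.25 for Rpl22 and 0.63 for Rpl22l1 on the log2 CPM scale.

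In ICN p53-ko leukaemias, Rpl22 lay at 574 and 420.3 CPM in deltaPOZ Lck, at 278 and 304 CPM in deltaPOZ Vav and at 513 and 581 CPM in Miz1 wt. The Vav libraries were below both Miz1-wt libraries, while 1 of the Lck libraries lay among them. In ICN p53-wt leukaemias, Rpl22 lay at 373 and 324 CPM in deltaPOZ Lck, at 356 and 329 CPM in deltaPOZ Vav and at 452 and 535 CPM in Miz1 wt. All 4 deltaPOZ libraries were below both Miz1-wt libraries there. Without ICN, Rpl22 lay at 324 and 264 CPM in deltaPOZ Vav and at 836 and 495 CPM in Miz1 wt, again without overlap.

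Rpl22l1 ran the other way. In ICN p53-ko leukaemias it lay at 42.5 and 78.8 CPM in deltaPOZ Lck, at 129 and 88.8 CPM in deltaPOZ Vav and at 41.0 and 40.2 CPM in Miz1 wt. The lowest deltaPOZ library exceeded the highest Miz1-wt library by little in this background. In ICN p53-wt leukaemias it lay at 175 and 179.8 CPM in deltaPOZ Lck, at 190.3 and 244 CPM in deltaPOZ Vav and at 85.5 and 102 CPM in Miz1 wt. Without ICN it lay at 105 and 22.3 CPM in deltaPOZ Vav and at 8.46 and 8.80 CPM in Miz1 wt. In each of the 3 backgrounds every deltaPOZ library was above every Miz1-wt library.

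**Figure D1:**
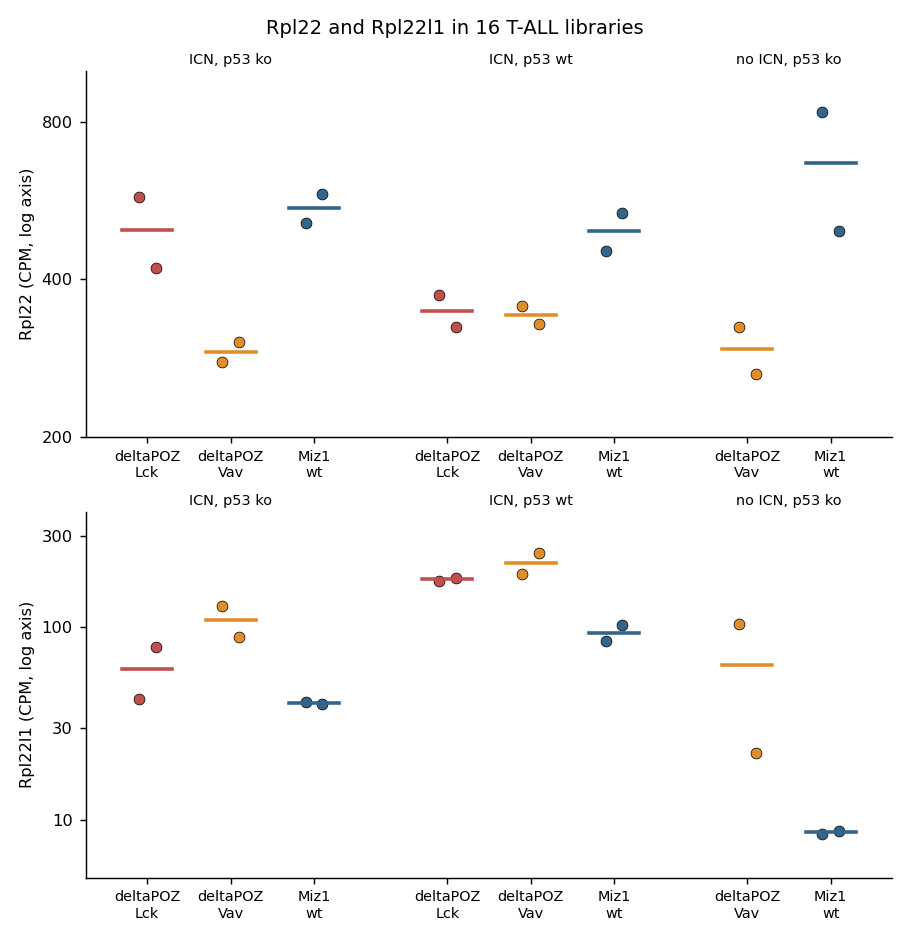
Rpl22 (top) and Rpl22l1 (bottom) in CPM on log axes, 1 point per library and a bar at the mean of the 2 mice of each group. Rpl22l1 spans 8.46 to 244 CPM and is higher in deltaPOZ than in Miz1-wt libraries of each background, and Rpl22 spans 264 to 836 CPM.

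Ordered by group mean, Rpl22 was highest in the Miz1-wt groups without ICN (666 ± 241 CPM, SD, n = 2) and with ICN and p53 ko (547 ± 47.9 CPM). ICN deltaPOZ Lck p53 ko (497 ± 109 CPM) and ICN Miz1 wt p53 wt (494 ± 58.5 CPM) followed. Neighbours among these 4 overlapped in their ranges. The 4 remaining groups, all deltaPOZ, lay apart from them with means of 291 to 349 CPM, and of these the ICN p53-wt groups Lck (349 ± 34.4 CPM) and Vav (342 ± 19.4 CPM) overlapped each other. The lowest was ICN deltaPOZ Vav p53 ko (291 ± 18.3 CPM), whose range overlapped that of deltaPOZ Vav without ICN (294 ± 42.2 CPM). Rpl22l1 was highest in ICN deltaPOZ Vav p53 wt (217 ± 38.0 CPM) and next in ICN deltaPOZ Lck p53 wt (177 ± 3.36 CPM), and these did not overlap. From the third to the sixth place, held by ICN deltaPOZ Vav p53 ko, ICN Miz1 wt p53 wt, deltaPOZ Vav without ICN and ICN deltaPOZ Lck p53 ko, each range overlapped the next. ICN Miz1 wt p53 ko (40.6 ± 0.569 CPM) and Miz1 wt without ICN (8.63 ± 0.240 CPM) came last, each apart from the groups ranked next to it. The range of ICN Miz1 wt p53 ko still lay within that of deltaPOZ Vav without ICN (22.3 to 105 CPM).

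The balance of the pair was taken from counts per kb of merged exons within a library, where library scaling cancels. On this scale Rpl22 exceeded Rpl22l1 in 15 of 16 libraries. The exception was an ICN deltaPOZ Vav p53-wt library, in which Rpl22l1 made up 52.1% of the pair. It depends on the length used. Per kb of the longest transcripts (2051 bases for Rpl22 and 1908 for Rpl22l1) or of shorter coding transcripts (474 bases for Rpl22 and 552 for Rpl22l1), Rpl22 exceeded Rpl22l1 in 16 of 16 libraries, and the highest Rpl22l1 share was 44.4% or 38.9%, settings added after seeing the data. Rpl22l1 made up 9.77% to 52.1% of the pair in the deltaPOZ libraries (median 36.3%, n = 10), against 1.46% to 21.9% in the Miz1-wt libraries (median 9.83%, n = 6).

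In ICN p53-ko leukaemias the Rpl22l1 share was 9.77% and 21.5% in deltaPOZ Lck, 40.5% and 29.96% in deltaPOZ Vav and 10.5% and 9.20% in Miz1 wt. In ICN p53-wt leukaemias it was 40.7% and 44.8% in deltaPOZ Lck, 43.9% and 52.1% in deltaPOZ Vav and 21.7% and 21.9% in Miz1 wt. Without ICN it was 32.1% and 10.98% in deltaPOZ Vav and 1.46% and 2.53% in Miz1 wt. The deltaPOZ and Miz1-wt shares overlapped only in the ICN p53-ko background, through deltaPOZ Lck replicate 1. The library so labelled stood at Miz1-wt values for both genes, and whether its Miz1 label is right cannot be told from these counts. It also had the highest summed erythroid (27008.2 CPM), neutrophil (9425.0 CPM) and macrophage markers (1656.6 CPM) of the series, and the part of those cells in its values was not tested. Without it, the averaged deltaPOZ change was -0.78 for Rpl22 and 1.71 for Rpl22l1 on the log2 scale.

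**Figure D2:**
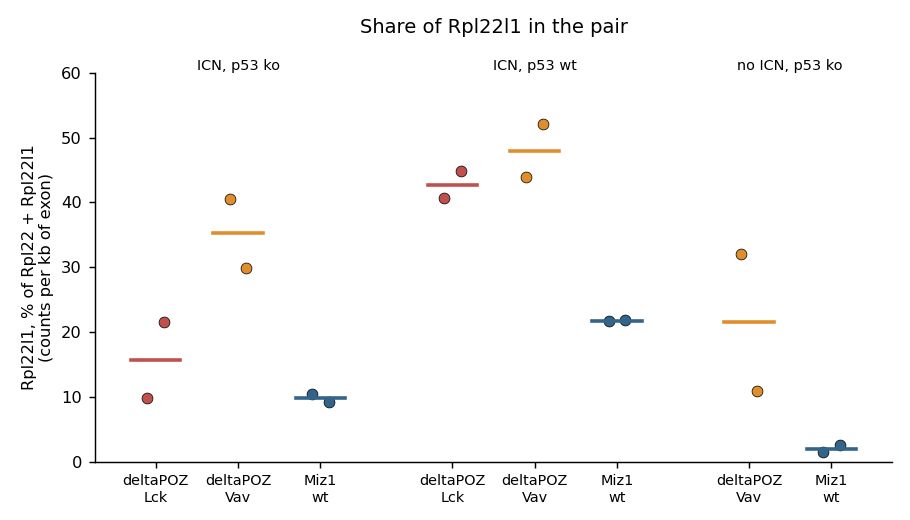
Share of Rpl22l1 in the sum of Rpl22 and Rpl22l1, in percent of counts per kb of merged exons, 1 point per library and a bar at the mean of each group of 2 mice. Shares reach 52.1% in deltaPOZ libraries with ICN and p53 wt and are 1.46% and 2.53% in Miz1-wt libraries without ICN.

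The first question was how both genes differ with the state of Miz1. Averaged over the 3 backgrounds, Rpl22 was 1.67-fold lower in deltaPOZ leukaemias (log2 -0.74, SE 0.13) and Rpl22l1 3.13-fold higher (log2 1.65, SE 0.29; 10 against 6 mice). The log2 ratio of Rpl22l1 to Rpl22 per kb was higher by 2.23, a 4.69-fold shift. For Rpl22 the log2 changes were -0.53 (SE 0.22) in ICN p53-ko, -0.52 (SE 0.22) in ICN p53-wt and -1.18 (SE 0.26) in p53-ko leukaemias without ICN. For Rpl22l1 they were 1.002 (SE 0.48) in ICN p53-ko, 1.06 (SE 0.48) in ICN p53-wt and 2.88 (SE 0.57) in p53-ko leukaemias without ICN.

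In the averaged comparison edgeR's quasi-likelihood test called 3 genes, 0.0172% of those tested, and neither member was among them. Nothing is read from this for the pair, which was chosen on the same comparison. Of all tested genes, 15 (0.0859%) had every deltaPOZ library above every Miz1-wt library in all 3 backgrounds, and Rpl22l1 is 1 of those, as its choice implies. The values without ICN rest on few mice. Without deltaPOZ Vav replicate 1, the Rpl22l1 change there was 1.35 on the log2 scale, and without Miz1-wt replicate 1 the Rpl22 change there was -0.74.

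Summed levels of 12 B cell markers moved with the state of Miz1 in part. They lay at 741.0 to 1543.5 CPM in deltaPOZ and 214.1 and 294.7 CPM in Miz1-wt libraries with ICN and p53 ko, and at 238.6 and 387.7 CPM in deltaPOZ and 67.5 and 158.5 CPM in Miz1-wt libraries without ICN. With ICN and p53 wt they overlapped, with 551.1 to 1350.6 CPM in deltaPOZ and 442.0 and 1262.2 CPM in Miz1-wt libraries. Without ICN, summed macrophage markers lay at 126.2 and 191.6 CPM in deltaPOZ and 250.7 and 356.4 CPM in Miz1-wt libraries, erythroid markers at 8.3 and 37.8 CPM in deltaPOZ and 2.2 and 2.7 CPM in Miz1-wt libraries, and neutrophil markers at 1.5 and 1.7 CPM in deltaPOZ and 0.8 and 1.0 CPM in Miz1-wt libraries. With ICN these 3 lists overlapped in both p53 states. The part of these cells in the differences was not tested. Vpreb3 was the B cell marker at 0, in 1 deltaPOZ and 1 Miz1-wt library without ICN. In bulk samples, fewer cells of a type and less RNA per cell cannot be told apart.

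Zbtb17 (ENSMUSG00000006215), which encodes Miz1, had an averaged log2 change of -0.25 (SE 0.15, adjusted p = 0.9999 by edgeR's quasi-likelihood test). Counts over the whole gene cannot show the loss of its POZ exons alone, so this value does not check the Miz1 labels. Its level per library was 38.0 to 87.5 CPM in deltaPOZ and 42.9 to 138 CPM in Miz1-wt leukaemias.

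Rpl22 stood apart from the other protein genes of the cytosolic ribosome. Of 78 others, all tested, none was called in the averaged deltaPOZ comparison, none reached an unadjusted p under 0.05, and DESeq2 called none. Over all 17470 genes, 859 reached such a p, edgeR called 3 and DESeq2 called 129. Their log2 changes had a median of 0.13, against -0.0004 over all genes, and reached from -0.21 for Rpl35a to 0.35 for Rps12, with 71 above 0. Rpl22 at -0.74 was the lowest of all 79 in the average and in each of the 3 backgrounds. The next lowest were Rpl39 at -0.15 in ICN p53-ko, Rps10 at -0.06 in ICN p53-wt and Rpl35a at -0.67 in p53-ko leukaemias without ICN. Rpl22l1 was above all 79 in each. Since both members were chosen on this comparison, their places are a description.

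The same was seen within libraries. Relative to the mean log2 CPM of the 78 other genes, Rpl22 lay at -0.36 and -0.40 in deltaPOZ Lck, -1.42 and -0.96 in deltaPOZ Vav and -0.06 and -0.21 in Miz1-wt libraries with ICN and p53 ko. It lay at -0.86 and -1.13 in deltaPOZ Lck, -1.01 and -1.19 in deltaPOZ Vav and -0.50 and -0.41 in Miz1-wt libraries with ICN and p53 wt. Without ICN it lay at -1.19 and -1.08 in deltaPOZ Vav and at 0.54 and -0.27 in Miz1-wt libraries. On this scale deltaPOZ and Miz1 wt did not overlap in any of the 3 backgrounds, while in CPM they overlapped with ICN and p53 ko. The share of all genes that separate in this way was not counted. As Rpl22 was chosen on this comparison, its separation is a description. The 79 genes together took 4.99% to 7.23% of the gene counts of a library.

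Of 7 other paralogs of ribosomal proteins, 5 passed the low-count filter and none was called with the state of Miz1. As edgeR called only 3 of all 17470 genes (0.0172%) there, this says little about the paralogs. An unadjusted p under 0.05 was reached by 1 of the 5, Rpl3l, beside 859 of all genes. Rpl7l1, Rpl36al and Rps27l, at mean levels of 123, 91.9 and 83.4 CPM, had log2 changes of -0.08, 0.06 and 0.05. Rpl3l, at a mean of 1.06 CPM, had -2.02 (SE 0.72, adjusted p = 0.890 by edgeR's quasi-likelihood test), with 10.1 CPM in 1 Miz1-wt library. Rps4l had 0.01 at a mean of 1.15 CPM, an average of changes in opposite directions. These were -2.34 (SE 1.03) in ICN p53-wt, 2.29 (SE 1.12) in ICN p53-ko and 0.08 (SE 1.29) in p53-ko leukaemias without ICN.

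**Figure D3:**
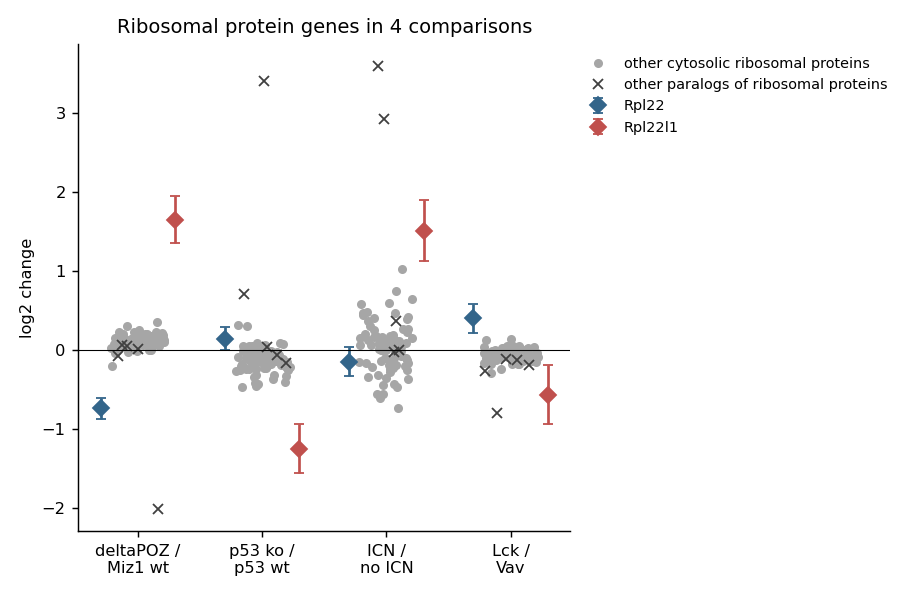
Log2 change of 78 cytosolic ribosomal protein genes (grey points), 5 paralogs (crosses), Rpl22 and Rpl22l1 (diamonds with 1 SE) in 4 comparisons. With deltaPOZ, Rpl22 at -0.74 is below and Rpl22l1 at 1.65 above all of the 78, and with loss of p53 Rpl22l1 lies at -1.25.

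Loss of p53 was compared among ICN leukaemias (6 against 6 mice), a contrast not used to choose the pair. The balance shifted away from Rpl22l1 in p53-ko leukaemias. The log2 ratio of Rpl22l1 to Rpl22 per kb fell by 1.41 on average (2.67-fold; exact two-sided permutation test within Miz1 class, p = 0.0093, the smallest its 216 arrangements allow; 0.0417 after Benjamini-Hochberg adjustment over 9 tests). In deltaPOZ Lck the mean log2 ratio was -2.54 with p53 ko against -0.42 with p53 wt. In deltaPOZ Vav it was -0.89 with p53 ko against -0.12 with p53 wt, and in Miz1 wt -3.20 with p53 ko against -1.84 with p53 wt. Every p53-ko library was below every p53-wt library of its class in this ratio. Without the library labelled deltaPOZ Lck p53-ko replicate 1, the average log2 change of the ratio was -1.191.

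The shift came with lower values of Rpl22l1. It lay 2.38-fold lower in p53-ko leukaemias (log2 -1.25, SE 0.31), which missed the threshold in edgeR's quasi-likelihood test (adjusted p = 0.107, where 34 genes or 0.195% were called) and passed in DESeq2 (adjusted p = 0.00501). The exact permutation test of its log2 CPM gave p = 0.0093, 0.0417 after adjustment over the 9 tests. Leaving out single libraries gave edgeR log2 changes of -1.424 to -1.141 for Rpl22l1. The weakest was without the library labelled deltaPOZ Lck p53-ko replicate 1. The level of Rpl22l1 was lower in p53-ko libraries in all 3 Miz1 classes without overlap, which 607 of the tested genes (3.47%) also showed. The log2 change was -1.55 (SE 0.54) in deltaPOZ Lck, -0.99 (SE 0.53) in deltaPOZ Vav and -1.21 (SE 0.53) in Miz1 wt.

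Rpl22 had no called difference with p53 (log2 0.14, SE 0.15, adjusted p = 0.695 by edgeR's quasi-likelihood test). Among its 78 ribosomal counterparts none was called and their median was -0.14, with Rpl24 the lowest at -0.47. Of the 78, 5 reached an unadjusted p under 0.05 and DESeq2 called 1, beside 2705 and 1088 of all 17470 genes. Rpl22l1 lay below all 79. Summed macrophage markers were 316.5 to 1656.6 CPM in p53-ko and 189.6 to 423.0 CPM in p53-wt ICN libraries, and summed neutrophil markers 54.5 to 9425.0 CPM in p53-ko and 56.0 to 936.1 CPM in p53-wt ICN libraries. Both were highest in deltaPOZ Lck p53 ko, and their part in the result was not tested. Of 10 macrophage markers all were detected in each library. Summed T cell markers overlapped, at 3041.5 to 3993.7 CPM in p53-ko and 2890.5 to 4041.2 CPM in p53-wt libraries.

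ICN was compared among p53-ko leukaemias, with Miz1 wt and deltaPOZ Vav (4 against 4 mice). Rpl22l1 rose 2.85-fold in ICN leukaemias (log2 1.51, SE 0.38, adjusted p = 0.0158 by edgeR's quasi-likelihood test), in a comparison in which 4194 genes, 24.0% of those tested, were called. In Miz1 wt it lay at 41.0 and 40.2 CPM with ICN and at 8.46 and 8.80 CPM without (log2 2.23, SE 0.55, adjusted p = 0.0286 by the same test). In deltaPOZ Vav it lay at 129 and 88.8 CPM with ICN and at 105 and 22.3 CPM without, which overlapped (log2 0.78, SE 0.53, adjusted p = 0.383). The difference between both Miz1 states in this effect was not tested. Without Miz1-wt replicate 1 of the leukaemias that lack ICN, the average was 1.46 on the log2 scale (edgeR's adjusted p = 0.0521), and without ICN deltaPOZ Vav p53-ko replicate 1 it was 1.375 (0.0589). The value itself moved most without replicate 1 (2.23) or 2 (1.16) of deltaPOZ Vav without ICN, where the call held.

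Rpl22 had no called difference with ICN (log2 -0.15, SE 0.18, adjusted p = 0.593 by edgeR's quasi-likelihood test), and without Miz1-wt replicate 1 of the leukaemias that lack ICN its sign turned (0.03). The log2 ratio of the pair was higher by 1.82 in ICN leukaemias (exact permutation p = 0.111, where the smallest possible is 0.0556). Markers of other cells differed widely along with ICN. Summed markers of erythroid cells (10 measured) were 6613.5 to 19837.8 CPM in ICN and 2.2 to 37.8 CPM in libraries without ICN, and those of neutrophils (10 measured) 54.5 to 3986.5 CPM in ICN and 0.8 to 1.7 CPM in libraries without ICN. Slc4a1 among erythroid and Ngp, Camp, Ltf and Mpo among neutrophil markers were at 0 in Miz1-wt replicate 1 without ICN. Summed T cell markers were 3295.0 to 3993.7 CPM in ICN and 4068.5 to 6516.5 CPM in libraries without ICN. The part of these cells in the Rpl22l1 difference was not tested.

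Among the 78 other ribosomal protein genes, 4 rose and 4 fell in ICN leukaemias, and the median was 0.01. An unadjusted p under 0.05 was reached by 16 of them, beside 6534 of all 17470 genes. The 8 called of 78 stand beside 24.0% called over all genes, as does the 1 paralog called of 5 tested. The risers were Rpl39 (1.02), Rpl36a (0.74), Rpl27a (0.64) and Rpl35a (0.60), and the fallers Rpl15 (-0.73), Rpl8 (-0.60), Rpl37 (-0.56) and Rpl30 (-0.47), all as log2 changes by edgeR's quasi-likelihood test. Rpl22l1 at 1.51 was above all of them, and Rpl22 ranked 22 of 79 from the lowest. Leaving out single libraries gave 3 to 12 called genes in this list, with 3 each without replicate 1 or 2 of ICN deltaPOZ Vav p53 ko. Of the paralogs, Rps4l rose (log2 3.59, SE 0.93, adjusted p = 0.0176). Its levels were low and varied between mice, with 0.655 and 7.58 CPM in ICN deltaPOZ Vav, against 0.137 and 0.156 CPM in deltaPOZ Vav without ICN. In Miz1 wt it lay at 1.40 and 0.0990 CPM with ICN and p53 ko, against 0.100 and 0.172 CPM without ICN. Leaving out single libraries gave 0 to 2 called paralogs, with 0 without ICN Miz1 wt p53 ko replicate 1, ICN deltaPOZ Vav p53 ko replicate 2, Miz1-wt replicate 1 without ICN or deltaPOZ Vav replicate 2 without ICN.

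Within ICN deltaPOZ leukaemias, Lck was compared with Vav (4 against 4 mice). Rpl22l1 was lower in every Lck than in every Vav library of both p53 states, an order that 622 tested genes (3.56%) shared. Its log2 change of -0.57 (SE 0.37) and that of Rpl22 of 0.40 (SE 0.18) did not pass (adjusted p = 0.9997 each by edgeR's quasi-likelihood test). In this comparison edgeR called 0 genes (0.0%). An unadjusted p under 0.05 was reached by 551, and 15 were called by DESeq2. Rpl22 was the highest and Rpl22l1 below all of the 79 ribosomal protein genes. The exact permutation p for Rpl22l1 was 0.0556, the smallest possible here, 0.167 after adjustment over the 9 tests. Without the library labelled deltaPOZ Lck p53-ko replicate 1, the log2 change was -0.40 for Rpl22l1, 0.26 for Rpl22 and -0.64 for their ratio, against -0.98 for the ratio with it.

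Across libraries the pair ran in opposite directions. With the mean of each background removed, log2 CPM of Rpl22 and Rpl22l1 had Pearson's r of -0.76 and Spearman's rho of -0.76 over 16 libraries, and r was -0.81 without the 2 libraries farthest from the median of Rpl22. Uncentred, r was -0.58 and rho -0.49. Among the 6 ICN p53-ko libraries r was -0.96 and rho -0.94, with r -0.92 without the 2 farthest. Among the 6 ICN p53-wt libraries r was -0.88 and rho -0.77, with r -0.50 without the 2 farthest, which were both Miz1-wt libraries. Among the 8 ICN deltaPOZ libraries r was -0.67 and rho -0.36, with r -0.28 without the 2 farthest. Both values of a point come from 1 library and share its scaling, and Miz1 state divides the points, so these are descriptions. With the mean of each group removed, r was 0.06 and rho -0.12.

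Within groups the 2 mice can be set against each other. In 6 of 8 groups the mouse with more Rpl22 had less Rpl22l1. In 3 of these the Rpl22l1 difference was near 0, at -0.03 in ICN Miz1 wt p53 ko, 0.04 in ICN deltaPOZ Lck p53 wt and 0.06 in Miz1 wt without ICN, so their direction says little. In ICN deltaPOZ Lck p53 ko, replicate 2 had 0.45 less Rpl22 and 0.89 more Rpl22l1 on the log2 scale than replicate 1. In the 2 exceptions, ICN Miz1 wt p53 wt and deltaPOZ Vav without ICN, both genes were higher in the same mouse. The second of these held the widest gap for Rpl22l1, with log2 differences of -0.29 for Rpl22 and -2.23 for Rpl22l1 between replicate 2 and replicate 1. For Rpl22 the widest gap was -0.76, in Miz1 wt without ICN.

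**Figure D4:**
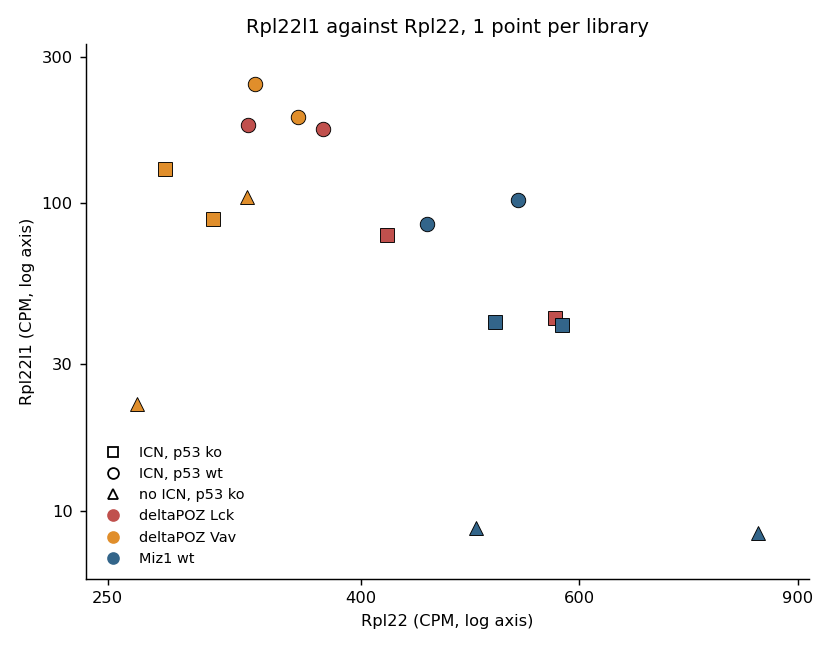
Rpl22l1 against Rpl22 in CPM on log axes, 1 point per library, with colour for Miz1 state and shape for background. In the ICN libraries the points fall from upper left to lower right. Without ICN, Rpl22l1 at 22.3, 8.46 and 8.80 CPM lies below every ICN library, while at 105 CPM in deltaPOZ Vav it lies among them.

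Genes beside the pair on the chromosome were examined as the 5 nearest expressed protein-coding genes on each side. None of the 20 was called in the averaged deltaPOZ comparison by edgeR or DESeq2. None had an unadjusted p under 0.05 there, beside 859 of all 17470 genes. Within single backgrounds edgeR called none of the 20. An unadjusted p under 0.05 was reached by 1 neighbour of Rpl22 with ICN and p53 wt, beside 327 of all genes. Without ICN it was reached by 1 neighbour of Rpl22l1, beside 1341 of all genes. Around Rpl22, Icmt, which encodes the methyltransferase of prenylated proteins, starts at -28.5 kb from its start and had a log2 change of -0.09 (SE 0.16). Chd5, a chromatin remodeller, starts 12.9 kb after it and had -0.45 (SE 0.40) at a mean of 0.398 CPM. The 10 neighbours of Rpl22 reached from this value to 0.38 for Nphp4. Around Rpl22l1, Eif5a2, a translation factor, starts at -24.2 kb from its start and had 0.73 (SE 0.50), while Mynn and Sec62 had -0.03 (SE 0.12) and 0.01 (SE 0.11). The widest were Samd7 (-0.28) and Slc2a2 (1.78, SE 1.03), at mean levels of 0.0755 and 0.216 CPM.

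**Figure D5:**
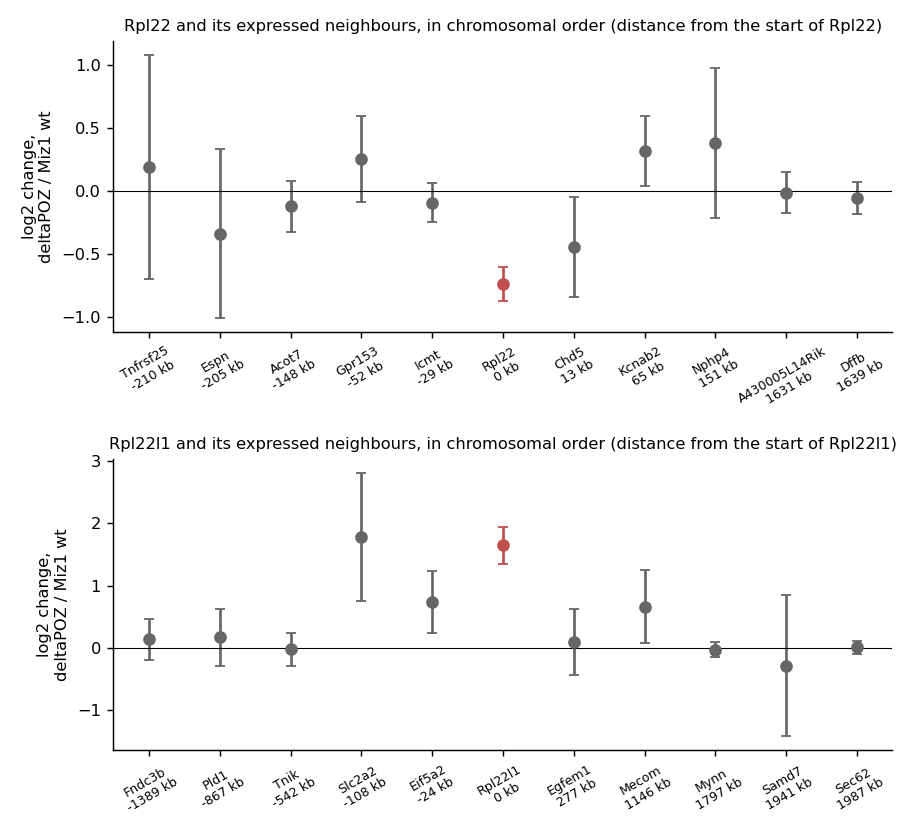
Log2 change in deltaPOZ against Miz1-wt leukaemias (points, with 1 SE) for Rpl22, Rpl22l1 and 5 expressed neighbours on each side, in chromosomal order with the distance in kb from the start of the member. Rpl22 at -0.74 is the lowest point of its panel, and in the other panel Slc2a2 at 1.78 exceeds Rpl22l1 at 1.65 with a wider error.

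No neighbour was called with p53 or with Lck against Vav by edgeR. With p53, 5 had an unadjusted p under 0.05 and DESeq2 called 1, beside 2705 and 1088 of all 17470 genes. In ICN leukaemias Acot7 (log2 -1.47), Icmt (-0.75), Tnik (-1.32) and Slc2a2 (-3.99) fell and Sec62 (0.52) rose by edgeR's quasi-likelihood test, 5 of 20 beside 24.0% of all genes. The number of all genes called was as low as 2524 without 1 library, ICN deltaPOZ Vav p53 ko replicate 2, against 4194 with all. Leaving out single libraries gave 1 to 6 called neighbours, with 1 without ICN deltaPOZ Vav p53 ko replicate 1 or without deltaPOZ Vav replicate 2 of the leukaemias that lack ICN, 2 without ICN Miz1 wt p53 ko replicate 1, ICN deltaPOZ Vav p53 ko replicate 2 or Miz1-wt replicate 1 without ICN, and 3 without ICN Miz1 wt p53 ko replicate 2.

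Genes tied to Rpl22 by earlier work were Lin28b, from a mouse lymphoma model, Smad1, from zebrafish blood stem cells, and the p53 pathway genes Trp53, Mdm2, Mdm4 and Cdkn1a. All 6 were tested and none was called with deltaPOZ, where their median log2 change was -0.01. As edgeR called only 3 of all 17470 genes (0.0172%) there, this says little about the 6. None of them had an unadjusted p under 0.05, beside 859 of all genes. Trp53 fell in p53-ko leukaemias as the genotype implies (log2 -2.06, adjusted p = 0.00900 by edgeR's quasi-likelihood test), with 14.0 to 30.6 CPM in p53-ko and 70.2 to 113 CPM in p53-wt ICN libraries. With deltaPOZ, Trp53 had -0.09 (SE 0.21) and Mdm2, the ubiquitin ligase of p53, -0.0002 (SE 0.12). Cdkn1a, the cell-cycle inhibitor induced by p53, had -1.05 (SE 0.52) at a mean of 1.79 CPM. Smad1, a signal transducer of bone morphogenetic proteins, fell in ICN leukaemias (log2 -1.38, SE 0.43, adjusted p = 0.0387) and had 0.28 (SE 0.32) with deltaPOZ. Lin28b, an RNA-binding protein of immature cells, had a mean of 0.0853 CPM.

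Processed pseudogenes can draw reads from both members. An annotated pseudogene was counted as a copy at 90% identity or more over at least 300 bases, a rule set after the data were seen. Rpl22 had 4, of which Rpl22-ps1 on chromosome X (93.9% identical over 380 bases) held 33 to 92 counts per library and the others at most 6. Its log2 change with deltaPOZ was -0.58 (SE 0.23, adjusted p = 0.979 by edgeR's quasi-likelihood test). Rpl22l1 had 3, of which Gm15421 on chromosome 5 (99.5% over 395 bases) held 1 to 57 counts. Gm15421 had a log2 change of 1.31 with deltaPOZ (SE 0.45, adjusted p = 0.861) and rose in ICN leukaemias (1.94, SE 0.60, adjusted p = 0.0370). Gm4910 held at most 1 count, and Gm2157 was not analysed here. Reads that match a parent and its copy equally drop out as not unique, so the counts of both members are uncertain to that extent. Adding the copies' counts to their parents changed no call.

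Genes with the most similar pattern were ranked by Pearson's r of background-centred log2 CPM over 16 libraries, among 10484 other genes, as a description. Rpl22 was most like Eif2b3, a subunit of the exchange factor eIF2B (r 0.91), Vps13d, a lipid transfer protein (0.90), Vps72, a chromatin protein (0.87), Taf5, a subunit of TFIID (0.87), and Ftl1, the ferritin light chain (0.86). Eif2b3 and Vps13d also lie on chromosome 4, from 117019402 and 144972622. Most opposite to Rpl22 were Trim68 (-0.86), Sf3b6, a splicing factor (-0.82), Zfp459 (-0.81), Lmbr1 (-0.81) and Retreg1, a receptor of endoplasmic reticulum autophagy (-0.78). Rpl22l1 ranked 10 from the lowest.

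Rpl22l1 was most like Zfp459, a zinc finger gene (0.92), 3830406C13Rik (0.92), Primpol, a primase-polymerase (0.88), Aga, a lysosomal hydrolase (0.86), and Sf3b6 (0.85). Most opposite to it were Tonsl, a replication repair protein (-0.92), Ambra1, an autophagy regulator (-0.91), Nde1 (-0.89), Asxl1, a chromatin regulator (-0.88), and Bhlhe40, a transcription factor (-0.88). Rpl22 ranked 80 from the lowest. Zfp459 and Sf3b6 stood among the most opposite to Rpl22 and the most like Rpl22l1. Their log2 changes in deltaPOZ leukaemias were 1.09 (SE 0.24) and 0.40 (SE 0.12). Miz1 state remains in background-centred values, and the pair was chosen for opposite differences with it. Such places and changes follow in part from that choice, and nothing further is read from them.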

How the data were processed

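RNA from 16 mice was sequenced after stranded mRNA library preparation with a TruSeq kit, per the labels' protocols. The deposited values are raw read counts per Ensembl gene. Per the submitters' processing notes, TopHat2 2.0.10, SAMtools, HTSeq and DESeq were used, with the builds mm10 and GRCm38. No source used here names the annotation or the strand setting. Totals that name no gene (5 per table) were left out, of which alignments not mapped uniquely took 45.81% to 63.74% of a library.

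Names, exons and coordinates came from GENCODE mouse release M21, which held 40340 of the 41214 gene rows, and promoter windows from RefSeq (both members matched). Groups follow the labels, which name separate mice. The fit used edgeR 4.0.16 (R 4.3.3) after filterByExpr and TMM scaling (factors 0.952 to 1.05). One quasi-likelihood model held all 8 groups, which left 8 residual degrees of freedom and gave a common dispersion of 0.208. Benjamini-Hochberg adjustment ran over all 17470 genes with a threshold of 0.05, and SE is the log2 change divided by the square root of F. The method was tested on simulated data. The ratio of the pair was tested by exact permutation within strata. The same test of the log2 CPM of each member was added to the planned tests. Alternatives were DESeq2 1.42.0, other scalings, no filter on low counts, an additive model, added pseudogene counts, other transcript lengths, a prior count of 2 in the ratio, and leaving out each library.

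The members, lists and tests were chosen with earlier results of these data known. Named genes were the members and their pseudogenes, Zbtb17, paralogs of ribosomal proteins, genes tied to Rpl22, 5 expressed neighbours on each side, up to 4 called ribosomal protein genes per direction, and the 5 genes highest and lowest in likeness of pattern (protein coding, mean log2 CPM of at least 1, no receptor segments). Rps12, Rps10 and Rpl24 are named only as the ends of a range, chosen after their values were seen.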

Additional observations from a re-analysis of the deposited data

Results flagged for a closer look

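The Rpl22 difference between p53 states ran in opposite directions in both deltaPOZ classes of ICN leukaemias. In Lck, both p53-ko libraries (574 and 420.3 CPM) were above both p53-wt libraries (373 and 324 CPM), a log2 difference of 0.50. The library at 574 CPM is replicate 1, which stood at Miz1-wt values for both genes. Whether its Miz1 label is right cannot be told from these counts, and the size of this difference rests in part on it. In Vav, both p53-ko libraries (278 and 304 CPM) were below both p53-wt libraries (356 and 329 CPM), a log2 difference of -0.23. Neither passed in edgeR's quasi-likelihood fit (log2 0.51, adjusted p = 0.525 in Lck; log2 -0.23, adjusted p = 1.0 in Vav). Of all genes tested, 613 (3.51%) had non-overlapping p53 groups in opposite directions in both classes. The difference between the classes was not tested.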

How the results depend on the processing

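Alternatives gave 484 values for the main comparisons, each averaged over its strata. Of 192 with a test, 185 kept direction and side of the threshold, 4 newly passed, 2 no longer passed and 1 reversed. The 185 include values that could not change, so they overstate stability. For the ratio with ICN and with Lck against Vav, the exact permutation test cannot give a p below 0.0556. Its alternatives there could not pass the threshold. Leaving out a library outside the contrast cannot move the ratio either. Of 228 counts of called genes, 204 stayed within 1.5 times and 24 did not. The 64 values described without a test, all of the averaged deltaPOZ comparison, moved by less than the spread between mice. Changes within single backgrounds are not in the 484, and of these values 122 stayed and 4 moved by more. The 4 were changes without ICN. Without Miz1-wt replicate 1 or 2 there, Rpl22 had -0.742 or -1.526. Without deltaPOZ Vav replicate 1 or 2 there, Rpl22l1 had 1.354 or 3.612. The Rpl22 difference with ICN reversed to 0.032 without Miz1-wt replicate 1 of the leukaemias that lack ICN (leave-one-out range -0.362 to 0.032). Rpl22l1 with p53 passed with no filter on low counts (-1.265, adjusted p = 5.82e-10), in DESeq2 (-1.239, adjusted p = 0.00501) and without either deltaPOZ library that lacks ICN (leave-one-out range -1.424 to -1.141, adjusted p 0.022 to 0.348). Rpl22l1 with ICN lost its call without 2 single libraries (range 1.156 to 2.231, adjusted p 0.0005 to 0.0589). With p53, DESeq2 called 1 ribosomal protein gene, 1 paralog and 1 neighbour, against 0 in edgeR, and leave-one-out fits called 0 to 1 paralog. With ICN, DESeq2 called 2 paralogs, beside 5332 of all genes. Leave-one-out fits with ICN called 3 to 12 ribosomal protein genes, 0 to 2 paralogs and 1 to 6 neighbours. The cause was not tested. Over all genes, DESeq2 called 129 with deltaPOZ, 1088 with p53 and 15 with Lck against Vav. With no filter on low counts edgeR called 502, 1588 and 277. Leaving out single libraries gave 0 to 20 with deltaPOZ, 2 to 132 with p53 and 2524 to 4643 with ICN. Another transcript length adds the same constant to each library's log2 ratio, so it cannot move a difference between groups and says nothing about stability, although the numbers above include it. No paired analysis was possible because replicate numbers follow accession order and pair no mice. With 2 mice per group, spread between mice and not depth limits precision.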
